A study of Mus musculus with 16 samples.

Results

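Globins are the oxygen-carrying proteins of red cells, and the globin genes studied here are Hbb-y, Hbb-bh1 and Hba-x, used by the embryo, and Hba-a1, Hbb-b1, Hbb-b2 and Hbb-bt, which serve later red cells. Slc4a1, which encodes band 3, the anion exchanger of the red cell membrane, was described with them as a red cell gene that is no globin. The members were chosen by name, as all probes annotated to these 8 genes, and 8 probes named 7 of them, out of 25696 probes and 10153 named genes on the array. Hbb-y had 2 probes, Hbb-b1 had none, and each of the others had 1.

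The RNA came from whole hearts of mouse embryos at E9.25 (22 to 24 somites), on a mixed C57/BL6;129Ola background. Control hearts (4 arrays) were wild type. KO hearts (3 arrays) were MesP1-cre:RBPJlox/lox, in which Cre made in early mesoderm deletes Rbpj, the DNA-binding protein that carries Notch signals to the genome. DKO hearts (4 arrays) had the same deletion on an Axin2-/- background, which lacks a scaffold protein that restrains Wnt signalling. The hetDKO hearts (3 arrays) were MesP1-cre:RBPJlox/+ and Axin2-/-, and the DKOhet hearts (2 arrays) were MesP1-cre:RBPJlox/lox and Axin2+/-. In Axin2-/- embryos the gene is missing from all cells, while MesP1-cre acts in mesoderm and its derivatives. The labels do not say whether blood was washed out, whether embryos were pooled, or whether the arrays of a group are different embryos. A p-value here therefore speaks only of the variation among these arrays, part of which may be technical.

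Mouse embryos make red cells in successive waves. Primitive red cells arise in the yolk sac, enter the circulation with their nuclei and carry the embryonic globins beside alpha globin, and they mature while in the bloodstream. Definitive red cells, which carry the adult beta globins, come later from the fetal liver, and the mother's blood carries the adult forms throughout. The beta-like genes lie in a cluster on chromosome 7 and the alpha-like genes in a cluster on chromosome 11. In each cluster the embryonic genes lie nearer the distant enhancer than the adult genes. A heart at this stage is filled with blood, so its RNA includes that of the circulating red cells, and in such bulk samples fewer red cells and less RNA per cell cannot be told apart.

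The stretches just before the start sites of an embryonic and an adult gene from each cluster are shown because these are the genes whose levels are set beside each other below. The 150 bases upstream of each start are from RefSeq promoter sequences (GRCm38.p6), which were available for 4 of the 8 members. They are written in the direction of the gene with motif matches in capitals.
Hbb-y (chr7:103853208-103853357, minus strand): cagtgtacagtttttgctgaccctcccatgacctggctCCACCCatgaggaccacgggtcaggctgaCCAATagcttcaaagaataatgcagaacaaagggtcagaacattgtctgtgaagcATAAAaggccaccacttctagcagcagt
Hba-x (chr11:32276450-32276599, plus strand): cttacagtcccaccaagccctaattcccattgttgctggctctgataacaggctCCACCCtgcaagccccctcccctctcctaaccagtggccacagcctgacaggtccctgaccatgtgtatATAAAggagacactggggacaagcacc
Hba-a1 (chr11:32283522-32283671, plus strand): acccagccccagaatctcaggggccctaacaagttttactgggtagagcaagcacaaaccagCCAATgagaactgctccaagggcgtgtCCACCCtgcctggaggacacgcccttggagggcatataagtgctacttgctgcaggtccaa
Hbb-bt (chr7:103813924-103814073, minus strand): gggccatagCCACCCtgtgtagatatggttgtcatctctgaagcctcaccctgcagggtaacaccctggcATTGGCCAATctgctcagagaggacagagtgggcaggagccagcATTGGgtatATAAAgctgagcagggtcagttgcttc
Each motif was searched on both strands, and the share of all 32851 promoters with a match in the same window is given beside it. The letters CCACCC, which Klf1 and related zinc finger factors bind, were present in 4 of the 4 sequences and in 19.7% of all promoters. The letters CCAAT, a box common to many promoters, were present in 3 of the 4, all but Hba-x, and in 24.5% of promoters, and Hbb-bt had 3 matches, of which 2 adjoin each other on opposite strands. The TATA-like letters ATAAA were present in 3 of the 4, all but Hba-a1, and in 24.1% of promoters. The letters AGATAA, one of the forms recognised by the erythroid factor Gata1, were present in 0 of the 4 and in 5.65% of promoters. Only these exact letters were searched. Other forms of each motif, such as TGATAA in Hba-x and ATATAAG in Hba-a1, were not counted. The CCACCC match began 112 bases before the start in Hbb-y and 141 in Hbb-bt, and 96 in Hba-x and 61 in Hba-a1.

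Each array detected 12360 to 13196 probes (detection p under 0.05 against its own negative control beads), with a median bead intensity of 171 to 211.65. All 8 member probes passed the filter, which asked for detection on at least 2 of the 16 arrays and kept 14058 probes. The brightest probe of each array read between 63796.2 and 68293.1, and 4 to 25 probes per array lay within the top 10% of that reading, so the scale was nearly full for the brightest transcripts. The files carry no saturation flag, and differences between bright probes may be compressed. The arrays were run on 2 beadchips, with 2 control, 2 KO, 2 DKO and 2 hetDKO arrays on beadchip 1. Beadchip 2 held 2 control, 1 KO, 2 DKO, 1 hetDKO and both DKOhet arrays. No probe was annotated to Rbpj or Axin2, so the genotype labels were not checked on the targeted genes. The tissue label was checked on heart muscle genes, of which 9 of 10 were tested and all 9, such as Myl7, Actc1 and Nkx2-5, were detected on all 16 arrays.

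**Figure D1:**
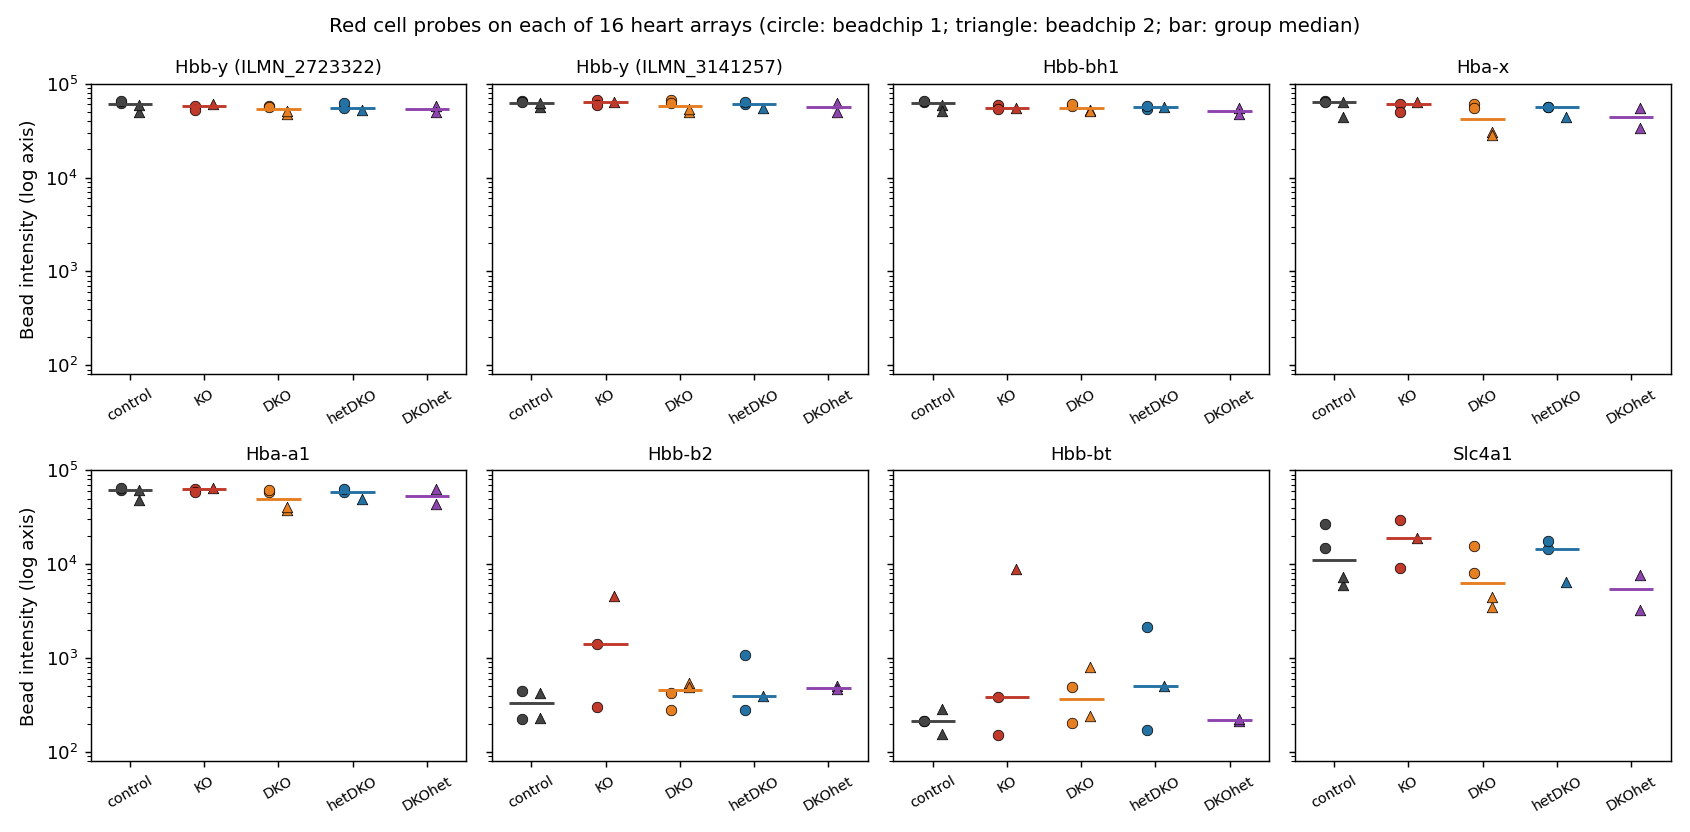
Bead intensity (log axis) of the 8 member probes on each of the 16 arrays, by genotype, with circles for beadchip 1, triangles for beadchip 2 and a bar at the group median. The embryonic globins and Hba-a1 lie near the top of the scale in every group, while Hbb-b2 and Hbb-bt are low except on single arrays, of which KO replicate 2 is the highest.

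Hbb-y encodes epsilon-y globin, the beta-like chain of primitive red cells. Its probe ILMN_2723322 read 61559.7, 49522.5, 65526.8 and 59515.3 in control replicates 1 to 4, and 57987.4, 61427.4 and 52679.5 in KO replicates 1 to 3. In DKO replicates 1 to 4 it read 57927.1, 47846.2, 56409.9 and 51185.9. In hetDKO replicates 1 to 3 it read 54871.0, 51827.7 and 62388.8, and in the 2 DKOhet arrays 58127.2 and 49800.8. The groups overlapped, and the highest array was 1.37 times the lowest. The other Hbb-y probe, ILMN_3141257, ran from 49652.0 on DKO replicate 2 to 66941.4 on KO replicate 1, again with overlapping groups.

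Hbb-bh1 encodes beta-h1 globin, another beta-like chain of primitive red cells. It ran from 47144.8 on DKOhet replicate 2 to 65693.7 on control replicate 3, a spread of 1.39 times over all arrays. Hba-x encodes zeta globin, the embryonic alpha-like chain. It read 64747.8, 43627.9, 63452.7 and 63189.9 in control replicates 1 to 4, and 61420.1, 63842.3 and 50156.5 in KO replicates 1 to 3. In DKO replicates 1 to 4 it read 60979.5, 30212.0, 54410.1 and 28571.6. The values of hetDKO were 56274.8, 43688.3 and 56668.0, and those of DKOhet 55064.7 and 33761.0. Hba-x thus had the widest range of the embryonic globins, 2.27 times, and its 3 lowest arrays (DKO replicates 2 and 4 and DKOhet replicate 2) were all on beadchip 2. One control array, replicate 2, lay below the other 3, and it too was on beadchip 2.

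Hba-a1 encodes an adult-type alpha chain that primitive red cells also make. It ran from 38232.5 on DKO replicate 2 to 65239.6 on KO replicate 2, 1.71 times. Its near-identical copy Hba-a2 had no probe of its own in the annotation, and which of the copies the probe reads was not analysed here. The KO arrays read 58196.1 to 65239.6 and the DKO arrays 62165.7 at most. On the normalised log2 scale the highest DKO array lay at 15.87 and the lowest KO array at 15.90, near the top of the scale.

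Hbb-b2 and Hbb-bt are adult beta globin genes of different haplotypes: the C57BL/6 reference cluster carries Hbb-bs and Hbb-bt, and other strains carry Hbb-b1 and Hbb-b2 in that place. Their sequences are close, the hearts were of mixed background, and which gene each probe reads was not analysed here. Hbb-b2 read 226.8, 229.4, 447.8 and 429.2 in control replicates 1 to 4, and 1401.3, 4558.6 and 302.3 in KO replicates 1 to 3. In DKO replicates 1 to 4 it read 283.7, 550.2, 422.0 and 489.5. In hetDKO replicates 1 to 3 it read 1079.9, 399.6 and 278.0, and in DKOhet 501.5 and 470.1. KO replicates 1 and 2 and hetDKO replicate 1 stood above all other arrays. The highest array read 20.1 times the lowest, background included.

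Hbb-bt read 212.8, 157.3, 215.5 and 287.2 in control replicates 1 to 4, and 385.0, 8833.8 and 152.0 in KO replicates 1 to 3. In DKO replicates 1 to 4 it read 491.1, 802.3, 206.2 and 240.4. In hetDKO replicates 1 to 3 it read 2164.5, 507.2 and 169.8, and in DKOhet 214.0 and 223.3. It was detected on 13 of the 16 arrays, and control replicate 2, KO replicate 3 and hetDKO replicate 3 were the ones not above background. KO replicate 2 was the highest array, and a single hetDKO array came next. KO replicate 1 was the second highest array for Hbb-b2 and the sixth for Hbb-bt, so the 2 probes did not rank the arrays alike.

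Slc4a1 read 14927.5, 6035.0, 26865.6 and 7338.0 in control replicates 1 to 4. It read 29731.9, 18861.4 and 9174.8 in KO replicates 1 to 3, and 15488.5, 3535.5, 8105.5 and 4492.5 in DKO replicates 1 to 4. The hetDKO arrays read 14696.3, 6516.9 and 17785.0, and the DKOhet arrays 7596.2 and 3231.1. The groups overlapped over a range of 9.20 times, and both control arrays on beadchip 1 lay above both on beadchip 2.

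KO was set against control to see how red cell transcripts of the heart stand when Rbpj is gone from mesoderm. The embryonic globins read alike in both groups, near the top of the scale, where differences may be compressed. The adult beta globins were higher in KO on average, through 2 of the 3 arrays. The mean log2 signal of Hbb-b2 was 10.13 ± 2.18 (SD, n = 3) for KO and 7.62 ± 0.79 (SD, n = 4) for control, a difference of 2.51 on the log2 scale (SE 0.78, 95% interval 0.84 to 4.17, limma adjusted p = 0.0641). Hbb-bt differed by 2.43 (SE 1.31, interval -0.36 to 5.23, limma adjusted p = 0.269) and Slc4a1 by 0.75 (interval -0.61 to 2.12, limma adjusted p = 0.508). None of the 8 member probes passed an adjusted p of 0.05, 0 of 8 against 7.58% of all probes tested, and 1 (Hbb-b2) had an unadjusted p under 0.05, against 3462 of all probes. Hba-x differed by 0.06 (interval -0.53 to 0.66), and no probe of Hbb-y, Hbb-bh1 or Hba-a1 differed by more than 0.15.

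KO replicate 2 decided the size of the adult beta globin difference. Without it the difference of Hbb-b2 was 1.51 (limma adjusted p = 0.232) and that of Hbb-bt 0.46 (limma adjusted p = 0.837). Within beadchip 2, where that array is the only KO array, Hbb-b2 differed by 4.58 and Hbb-bt by 6.45, and both passed (limma adjusted p = 0.00918 and 0.0324), 2 of 8 against 0.676% of all probes, with the lone array assumed to vary like the other groups. Within beadchip 1 the differences were 1.43 and 0.39 (limma adjusted p = 0.451 and 0.906). Hbb-b2 also passed when arrays were weighted by quality (2.36, limma adjusted p = 0.0473, against 13.2% of all probes) and without KO replicate 3 (3.67, limma adjusted p = 0.00849, against 4.2%).

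**Figure D2:**
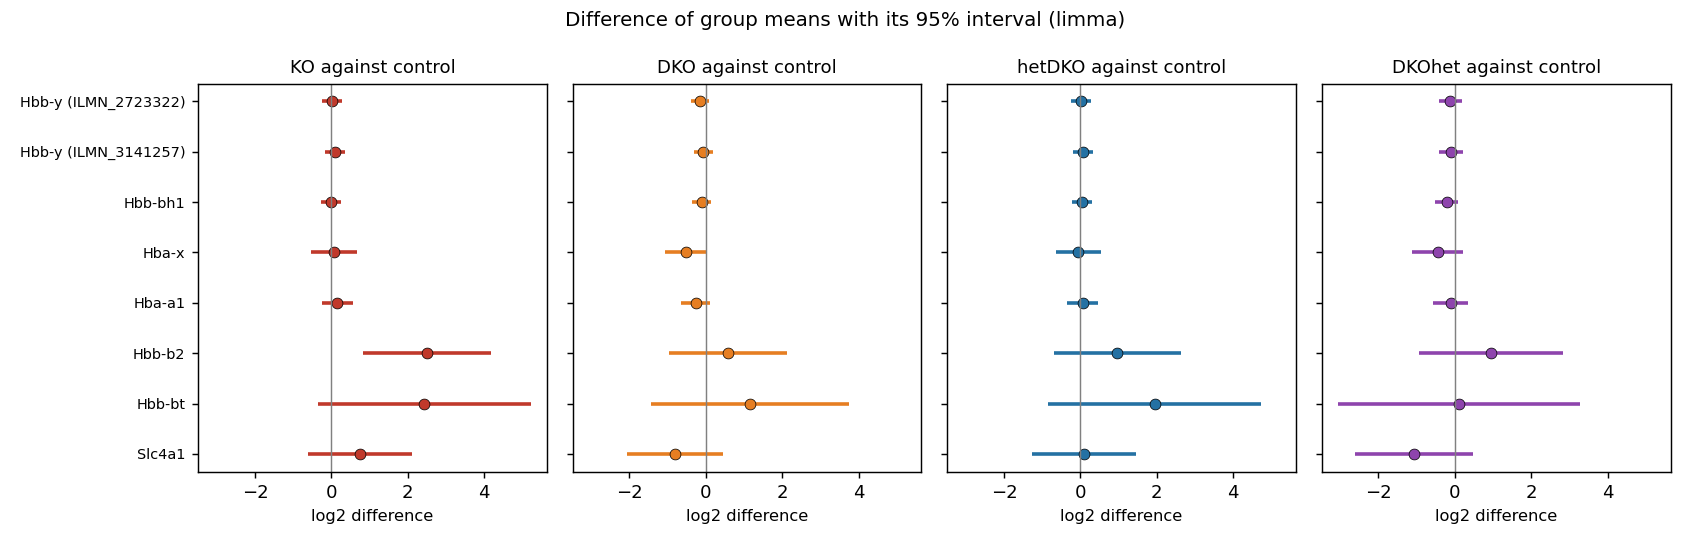
Difference of group means on the log2 scale for the 8 member probes in each mutant against control, with points at the estimate and lines over the 95% interval of the limma fit. The intervals of Hbb-y and Hbb-bh1, whose probes lie near the top of the scale, are short and include 0 in all 4 comparisons. Those of Hbb-b2 and Hbb-bt are several log2 units wide, and only that of Hbb-b2 in KO (0.84 to 4.17) leaves out 0 before adjustment.

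In DKO hearts, which lack both Rbpj and Axin2, Hba-x and Slc4a1 were lower than in control on average and the adult beta globins higher, each within the spread of the arrays. The mean log2 signal of Hba-x was 15.26 ± 0.61 (SD, n = 4) in DKO against 15.79 ± 0.26 (SD, n = 4) in control, a difference of -0.52 (interval -1.07 to 0.03, limma adjusted p = 0.198). Slc4a1 differed by -0.81 (interval -2.07 to 0.46, limma adjusted p = 0.401), Hbb-b2 by 0.58 (limma adjusted p = 0.649) and Hbb-bt by 1.15 (limma adjusted p = 0.578). In limma 0 of 8 member probes passed, against 13.2% of all probes, and 0 of 8 had an unadjusted p under 0.05, against 4015 of all. With 1 array left out at a time, the difference ran from -0.74 to -0.35 for Hba-x and from -1.26 to -0.40 for Slc4a1. The difference of Hba-x was -0.15 within beadchip 1 and -0.89 within beadchip 2, and that of Slc4a1 was -0.77 and -0.84.

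In hetDKO hearts, which lack Axin2 and keep an intact Rbpj copy, none of the 8 member probes passed in limma, as for all probes (0%), and 0 of 8 had an unadjusted p under 0.05 against 545 of all. Hbb-bt differed from control by 1.95 (interval -0.85 to 4.74, limma adjusted p = 0.998) and Hbb-b2 by 0.96 (interval -0.70 to 2.63). Both rested on hetDKO replicate 1, and without it the differences were 0.75 and 0.27. Slc4a1 and Hba-x differed by 0.09 and -0.06.

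In DKOhet hearts Slc4a1 differed from control by -1.07 (interval -2.62 to 0.48, limma adjusted p = 0.383) and Hba-x by -0.45 (interval -1.12 to 0.22, limma adjusted p = 0.398). Without DKOhet replicate 1 these differences were -1.76 and -0.80, and without DKOhet replicate 2 they were -0.38 and -0.0989. Hbb-b2 differed by 0.95 (interval -0.94 to 2.84, limma adjusted p = 0.541) and Hbb-bt by 0.10. In limma 0 of 8 member probes passed, against 8.61% of all probes, and 0 of 8 had an unadjusted p under 0.05, against 3582 of all. Both DKOhet arrays were on beadchip 2, and against the 2 control arrays of that beadchip the difference of Slc4a1 was -0.28 (limma adjusted p = 0.801) and that of Hbb-b2 was 1.02 (limma adjusted p = 0.253).

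DKO was set against KO to ask what the loss of Axin2 adds to that of Rbpj. Hbb-b2 differed by -1.93 (interval -3.60 to -0.26) and Slc4a1 by -1.56 (interval -2.93 to -0.19), both with a limma adjusted p of 0.977. Hba-x differed by -0.59 (interval -1.18 to 0.01, limma adjusted p = 0.977). In limma 0 of 8 member probes passed, against 0.0142% of all probes, and 3 (Hbb-b2, Slc4a1 and Hba-a1) had an unadjusted p under 0.05, against 706 of all. Without KO replicate 2 the difference of Hbb-b2 was -0.93 and that of Slc4a1 was -1.56. Within beadchip 2 Hbb-b2 passed (-3.63, limma adjusted p = 0.0276), 1 of 8 against 0.42% of all probes, but KO replicate 2 is the only KO array there and was assumed to vary like the other groups.

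DKO was also set against hetDKO, and the 9 arrays with Rbpj deleted (KO, DKO and DKOhet) against the 7 with it present (control and hetDKO). These comparisons share arrays with those above. DKO differed from hetDKO by -0.47 in Hba-x (interval -1.06 to 0.13, limma adjusted p = 0.329) and by -0.90 in Slc4a1 (interval -2.27 to 0.47, limma adjusted p = 0.422). In limma 0 of 8 member probes passed, against 7.86% of all probes, and 0 of 8 had an unadjusted p under 0.05, against 3455 of all. Over all 16 arrays, Rbpj deletion went with a difference of 0.86 in Hbb-b2 (interval -0.27 to 1.99, limma adjusted p = 0.251), -0.27 in Hba-x (limma adjusted p = 0.306) and -0.42 in Slc4a1 (limma adjusted p = 0.511). Again 0 of 8 passed in limma, against 26.4% of all probes, and 0 of 8 had an unadjusted p under 0.05, against 5370 of all. Hbb-b2 passed within beadchip 2 (1.89, limma adjusted p = 0.0329, against 1.1% of all probes) and without KO replicate 3 (1.25, limma adjusted p = 0.0321, against 23.5%). The difference was 0.53 without KO replicate 2 (limma adjusted p = 0.408) and 0.26 within beadchip 1 (limma adjusted p = 0.838). The test of whether the difference DKO minus hetDKO departs from KO minus control gave no member an adjusted p under 0.938 in limma.

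The balance of embryonic and adult beta globin was followed on each array as the mean log2 signal of Hbb-y, Hbb-bh1 and Hba-x minus that of Hbb-b2 and Hbb-bt. The 2 Hbb-y probes were averaged first, and each gene was then centred on its own mean over the arrays. The balance is a relative measure that says nothing of which globin was more abundant. Control arrays lay between 0.49 and 1.61. KO replicates 1 to 3 lay at -0.96, -4.31 and 1.28, and DKO arrays between -1.13 and 0.75. The hetDKO arrays lay at -2.16, -0.25 and 1.38 and the DKOhet arrays at 0.52 and 0.12. Each of the 4 mutant groups held 1 array within the control range and the others below it. The embryonic mean ranged over 0.66 log2 units across the arrays and the adult beta mean over 6.13, so the balance followed the adult beta probes. The embryonic probes lie near the top of the scale, where differences may be compressed.

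The difference of this balance between KO and control was -2.43, and it was -0.94 without KO replicate 2 and -3.74 without KO replicate 3. It was -1.11 for DKO, -1.44 for hetDKO and -0.78 for DKOhet against control, beside a within-group SD of 1.51. With 1 array left out at a time, the hetDKO difference ran from -2.31 to -0.54, the latter without hetDKO replicate 1, that of DKO from -1.37 to -0.74 and that of DKOhet from -0.99 to -0.59. Since the balance is a score over the members it was not tested.

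**Figure D3:**
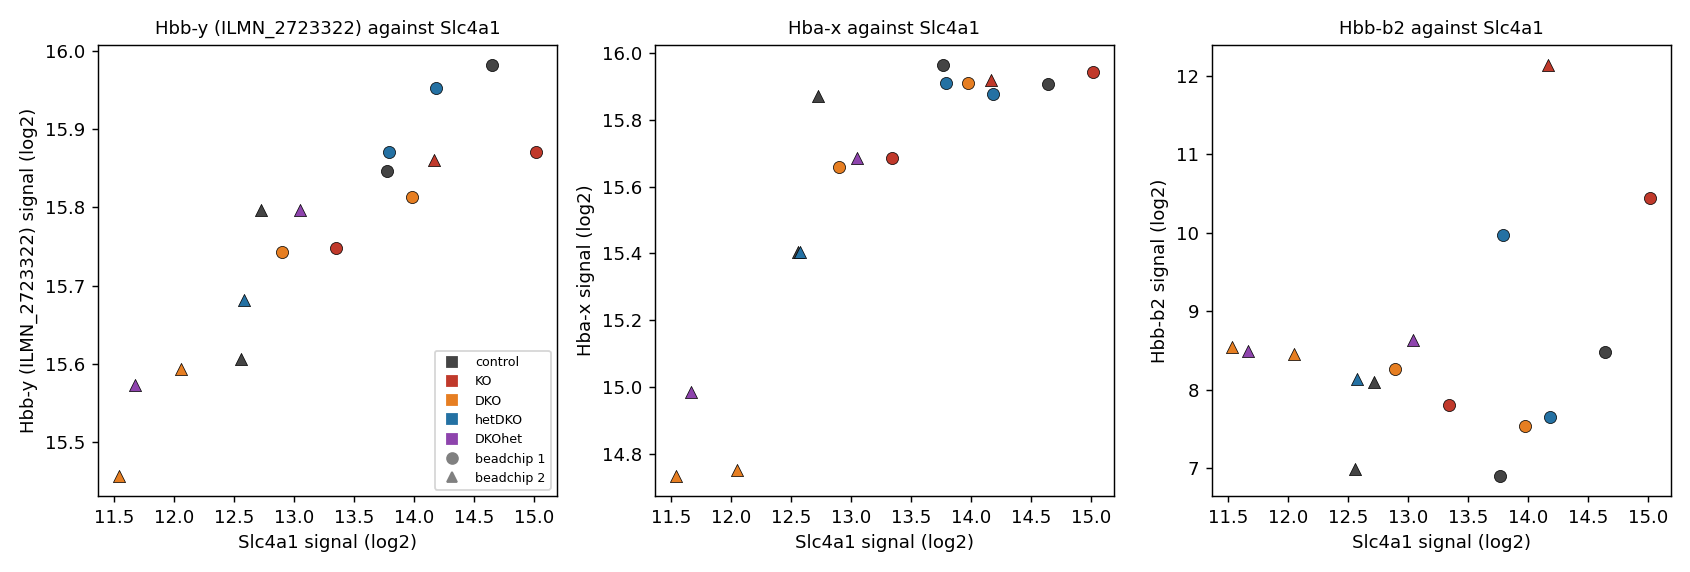
Log2 signal of Hbb-y (probe ILMN_2723322, left), Hba-x (middle) and Hbb-b2 (right) against that of Slc4a1 on 16 arrays, coloured by genotype, with circles for beadchip 1 and triangles for beadchip 2. Hbb-y and Hba-x are higher where Slc4a1 is higher, Hba-x levelling off at the top, while Hbb-b2 shows no such order (r = 0.324), and beadchip 2 arrays lie mostly to the left.

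Slc4a1 and the embryonic globins varied together from array to array. Over the 16 arrays Slc4a1 correlated with Hbb-y (ILMN_2723322) at Pearson's r = 0.914 and Spearman's rho = 0.953, with a permutation p of 2e-05 for each, the smallest that 100000 permutations can give. Adjusted over the 9 relations computed, these p-values were 6e-05 and 0.00018. Without the 2 arrays farthest from the median of Slc4a1, r was 0.932. Within beadchip 1 (8 arrays) r was 0.757 (exact permutation p = 0.0295) and within beadchip 2 (8 arrays) 0.902 (exact permutation p = 9.92e-05).

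The other Hbb-y probe, ILMN_3141257, gave r = 0.877 and rho = 0.835 with Slc4a1 over the 16 arrays (permutation p = 4e-05 and 0.00014, adjusted 7.2e-05 and 0.000315), and 0.838 without the 2 farthest arrays. Within beadchip 2 its r was 0.901 (exact permutation p = 0.000347), but within beadchip 1 it was 0.407 (exact permutation p = 0.319), so for this probe the relation was not found there. The 2 Hbb-y probes correlated with each other at r = 0.879 and rho = 0.77 over all arrays (permutation p = 4e-05 and 0.00088, adjusted 7.2e-05 and 0.00158), and at 0.775 without the 2 farthest. Within beadchip 2 that r was 0.954 (exact permutation p = 0.000198) and within beadchip 1 it was 0.0929 (exact permutation p = 0.825), where ILMN_3141257 ranged over only 1.13 times.

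Hba-x followed Slc4a1 with r = 0.864 and rho = 0.871 (permutation p = 2e-05 and 8e-05, adjusted 6e-05 and 0.00024). Within beadchips 1 and 2 its r was 0.752 and 0.865 (exact permutation p = 0.0306 and 0.00298), and without the 2 farthest arrays 0.846. Hba-a1 gave r = 0.851 and rho = 0.89 (permutation p = 2e-05 and 4e-05, adjusted 6e-05 and 0.00018), with 0.582 and 0.882 within the beadchips (exact permutation p = 0.138 and 0.000645) and 0.832 without the 2 farthest arrays. Hbb-bh1 gave r = 0.784 and rho = 0.72 (permutation p = 0.00028 and 0.0022, adjusted 0.00042 and 0.0033), with 0.714 and 0.495 within the beadchips (exact permutation p = 0.0498 and 0.221) and 0.756 without those arrays. These probes share the array, its normalisation and the blood it holds.

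For the adult beta globins no such relation passed. Hbb-b2 had r = 0.324 and rho = 0.126 with it (permutation p = 0.226 and 0.642, adjusted 0.254 and 0.722), and Hbb-bt r = 0.209 and rho = 0.0618 (permutation p = 0.449 and 0.824, adjusted 0.449 and 0.824). Without the 2 farthest arrays these r were 0.22 and 0.337. Within beadchip 2 they were 0.668 and 0.583, and within beadchip 1 0.44 and 0.178. Hbb-b2 and Hbb-bt correlated with each other at r = 0.804 and rho = 0.6 (permutation p = 0.0025 and 0.0142, adjusted 0.00321 and 0.0182), and without KO replicates 1 and 2 r was 0.641. Within the beadchips it was 0.636 and 0.903 (exact permutation p = 0.133 and 0.0273). The difference between correlations was not tested.

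The bright red cell probes were lower on beadchip 2 than on beadchip 1. With the 5 group means in the fit, an alternative chosen after the data were seen, Slc4a1 was lower on beadchip 2 by 1.25 log2 units (a difference of -1.25, limma adjusted p = 0.0609), Hba-x by 0.48 (-0.48, limma adjusted p = 0.108) and Hba-a1 by 0.33 (-0.33, limma adjusted p = 0.108). The adult beta probes differed the other way, Hbb-b2 by 0.60 and Hbb-bt by 1.24 (limma adjusted p = 0.557 and 0.454). In limma 0 of 8 member probes passed, against 2.72% of all probes, and 6 had an unadjusted p under 0.05, against 3037 of all. What else differed between the beadchips is not given in the labels.

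Other red cell genes described the same arrays. Of a list of 32 genes of the red cell membrane, enzymes and maturation, 20 were tested, and 0 passed in any of the 7 genotype comparisons, in which 0% to 26.4% of all probes passed. With the beadchip as a block 1 of the 20 fell in DKO, the transcription factor Tal1 by -1.24 (limma adjusted p = 0.0417), against 16.5% of all probes. Without KO replicate 2, Ank1 fell in the Rbpj-deleted arrays by -1.34 (limma adjusted p = 0.0487), 1 of 20 beside 26.5% of all probes. In that comparison Ank1 passed in 7 of 30 alternatives, Dmtn in 5 of 30, and Car2 and Tal1 in 1 of 30 each. The share of all probes that passed in those alternatives ran from 1.1% to 31.2%. In the main fit their limma adjusted p-values were 0.0583, 0.0611, 0.101 and 0.0805. Within beadchip 2, with its lone KO array, 1 rose in KO against control (Icam4) and 3 fell in DKO against KO (Icam4, Tspan33 and Tal1), against 0.676% and 0.42% of all probes. Their median difference from control was 0.22 in KO, -0.81 in DKO, -0.00479 in hetDKO and -1.05 in DKOhet, with 14, 2, 10 and 4 of the 20 positive, while the median of all probes tested lay between -0.02 and 0.0087. In DKO against KO the median was -1.12, with 19 of 20 negative. The spectrin anchor Ank1 differed by -1.46 in DKO (limma adjusted p = 0.135) and -1.80 in DKOhet (limma adjusted p = 0.154). Within beadchips 1 and 2 the DKO median was -0.94 and -0.68, and the DKOhet median was -0.40 within beadchip 2, where all its arrays lie. The KO median was -0.41 within beadchip 1 and 1.30 within beadchip 2, and 0.01 without KO replicate 2.

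Of 12 genes of heme synthesis and mitochondrial iron 10 were tested. All 10 had a negative difference in DKO (median -0.51) and in DKOhet (median -0.66), and the median was 0.15 in KO. In DKOhet 2 of the 10 fell and 0 rose, against 8.61% of all probes that passed: Alas1, the housekeeping form of the first enzyme of heme synthesis, by -0.64 (limma adjusted p = 0.0479) and Slc25a38, a mitochondrial glycine carrier, by -0.66 (limma adjusted p = 0.0331). The same 2 fell in the Rbpj-deleted arrays, where 26.4% of all probes passed, Alas1 by -0.47 (limma adjusted p = 0.00699) and Slc25a38 by -0.45 (limma adjusted p = 0.00615). Uros differed there by -0.67 (limma adjusted p = 0.0619) and passed in 5 of 30 alternatives. Abcb10 differed by -0.52 (limma adjusted p = 0.136) and passed in 1 of 30. Slc25a38 read 6841.2, 6522.1, 7114.1 and 4882.7 in control replicates 1 to 4 and 3617.4 and 3606.5 in DKOhet. Alas1 read 3805.8, 3174.8, 3680.2 and 3740.4 in control and 1875.8 and 2484.1 in DKOhet. Neither gene passed within beadchip 2 (limma adjusted p = 0.262 for Alas1 and 0.362 for Slc25a38 in DKOhet). In DKOhet the call of Alas1 was kept in 11 of 29 alternatives and was lost when any single array other than KO replicates 1 and 2 was left out. That of Slc25a38 was kept in 22 of 29 and lost without control replicate 1, 2 or 3 or either DKOhet array. Alas2, the red cell form of the enzyme, ran from 1296.3 on DKO replicate 2 to 17193.3 on KO replicate 1 and differed by 1.33 in KO (limma adjusted p = 0.328), -0.69 in DKO (limma adjusted p = 0.586) and -0.81 in DKOhet (limma adjusted p = 0.616).

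**Figure D4:**
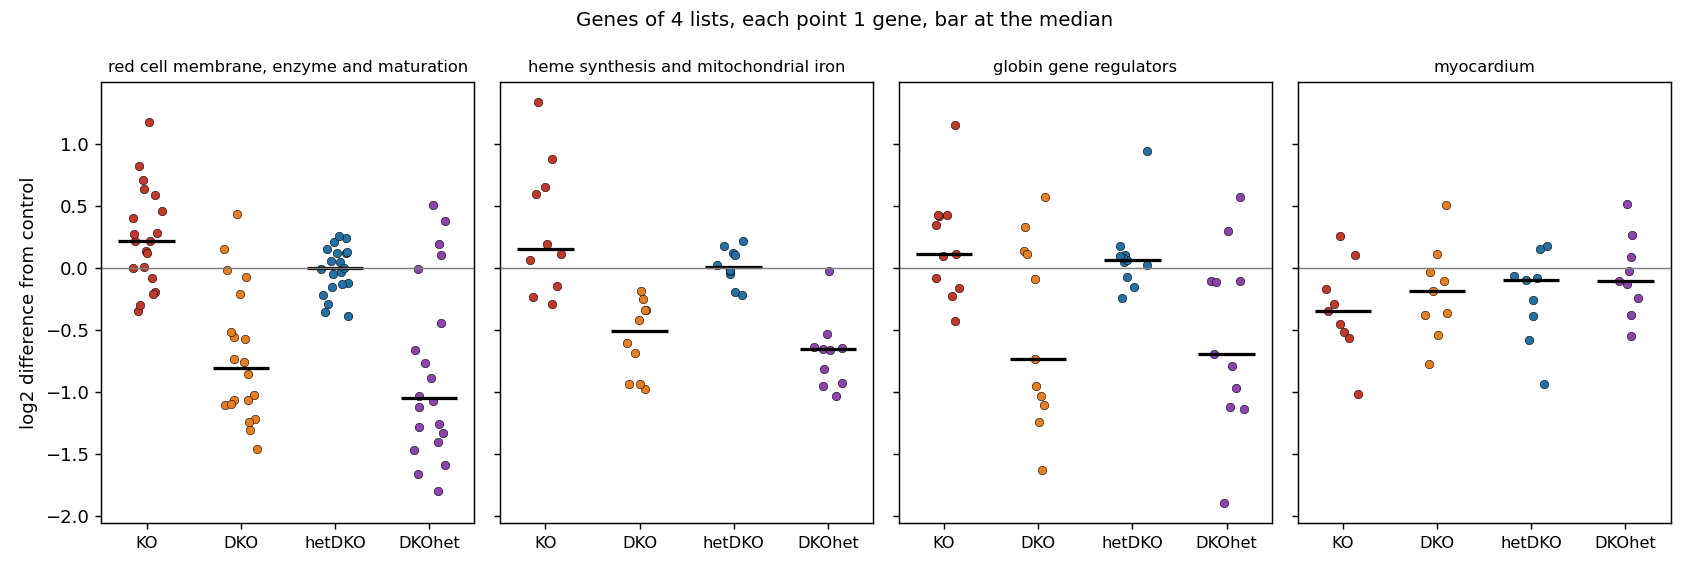
Difference from control on the log2 scale for each tested gene of 4 lists, by mutant genotype, with a bar at the list median. The red cell and heme genes lie mostly below 0 in DKO (medians -0.81 and -0.51) and DKOhet (-1.05 and -0.66) and near 0 in hetDKO, while heart muscle genes have medians between -0.35 and -0.10.

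Of 15 regulators of globin genes 11 were tested. Nr2c1, an orphan nuclear receptor that binds the embryonic beta globin promoters, rose in DKO by 0.57 (limma adjusted p = 0.0112), the only one of the 11 to pass against control in that genotype, against 13.2% of all probes. With the beadchip as a block 2 more passed there, Klf1 at -1.63 (limma adjusted p = 0.0402) and Tal1, which is also on the red cell list, at -1.24 (limma adjusted p = 0.0417), so that 3 of 11 passed beside 16.5% of all probes. Nr2c1 read 401.7 to 596.8 in control and 509.7 to 758.9 in DKO, and Tal1 607.3 to 1390.2 in control and 387.5 to 530 in DKO, before normalisation. In the Rbpj-deleted arrays 1 regulator rose, Nr2c1 by 0.35 (limma adjusted p = 0.0124), and 2 fell, Klf1 by -1.19 (limma adjusted p = 0.0463) and Klf2 by -0.71 (limma adjusted p = 0.0242), so that 3 of 11 passed beside 26.4% of all probes. Klf1, the CACCC-binding activator of adult beta globin, read 1641.5, 934.8, 3250.9 and 923.2 in control and 825.8, 384.5, 636.1 and 512.3 in DKO. Every DKO array read below every control array, but on the normalised log2 scale the groups overlapped, with DKO replicate 1 at 9.53 and control replicate 4 at 9.49. It was 602.4 and 353.9 in DKOhet and 2471.4, 1577.4 and 486.7 in KO, and its differences from control were -1.63 in DKO (limma adjusted p = 0.0733), -1.90 in DKOhet (0.105) and -0.16 in KO (0.899). Its call in the Rbpj-deleted arrays was kept in 15 of 30 alternatives and was lost without KO replicate 2 (limma adjusted p = 0.0511), KO replicate 3, control replicate 1 or 3, DKO replicate 2, 3 or 4, hetDKO replicate 1 or 3, or DKOhet replicate 2, within either beadchip (0.155 and 0.454), with the beadchip as a block (-1.02, limma adjusted p = 0.0532), with cyclic loess and without the filter. That of Klf2 was lost without hetDKO replicate 3 or DKOhet replicate 1. The calls of Klf2, Nr2c1, Alas1 and Slc25a38 were also lost within beadchip 2. Within beadchip 1 those of Klf2 (limma adjusted p = 0.0654) and Slc25a38 (0.0521) in the Rbpj-deleted arrays were lost, and that of Nr2c1 in DKO (0.0688), which was also lost when only control and DKO arrays were fitted. Gata1 was detected on 7 of the 16 arrays.

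Other globins were at or near background. Of 8 such genes 3 were tested, the heme proteins of muscle, brain and connective tissue Mb, Ngb and Cygb, and 0 passed. Cygb differed by -0.37 in the Rbpj-deleted arrays (limma adjusted p = 0.0549).

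Markers of other cells moved with adult beta globin on single arrays. The genes whose level followed the adult beta mean best over the 16 arrays, by Pearson's r, were Rhox9 (0.914), Cyp11a1 (0.913), Sphk1 (0.908), S100a6 (0.886), Prelp (0.880) and Aoc1 (0.879), all highest on KO replicate 2. Without that array Rhox9 (0.813), Ube2j1, Rnpc3, Cyp11a1 (0.798), Rchy1 and Sphk1 (0.767) led. Those that followed the embryonic mean best were Lynx1 (0.921), Rhag (0.897), Fech (0.888), Rtn4ip1 (0.881), Ostf1 and Mllt3 (0.877), of which Rhag is a red cell membrane protein and Fech the last enzyme of heme synthesis. These are descriptions, since the 6 were picked from all genes as the highest.

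Rhox9 and Rhox6 are homeobox genes of the placenta and germ line, Prl8a2 is a prolactin-family hormone of the decidua, the maternal tissue around the embryo, and S100a8 is a neutrophil protein. Prl8a2 read 11886.7 on KO replicate 2 and 235.8 to 2751.6 on the other 15 arrays. Rhox9 read 5923.7 against 140 to 974.8, and S100a8 2829.7 against 113.2 to 822.0. On KO replicate 1 Rhox9 read 707.3 and Prl8a2 1268.6, and on hetDKO replicate 1, the other array high in adult beta globin, 974.8 and 1128.2. Prl8a2 was also high on DKO replicate 2 (2751.6), hetDKO replicate 2 (2300.5) and hetDKO replicate 3 (2249.4). On these arrays Hbb-b2 read 550.2, 399.6 and 278.0, and Hbb-bt 802.3, 507.2 and 169.8.

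**Figure D5:**
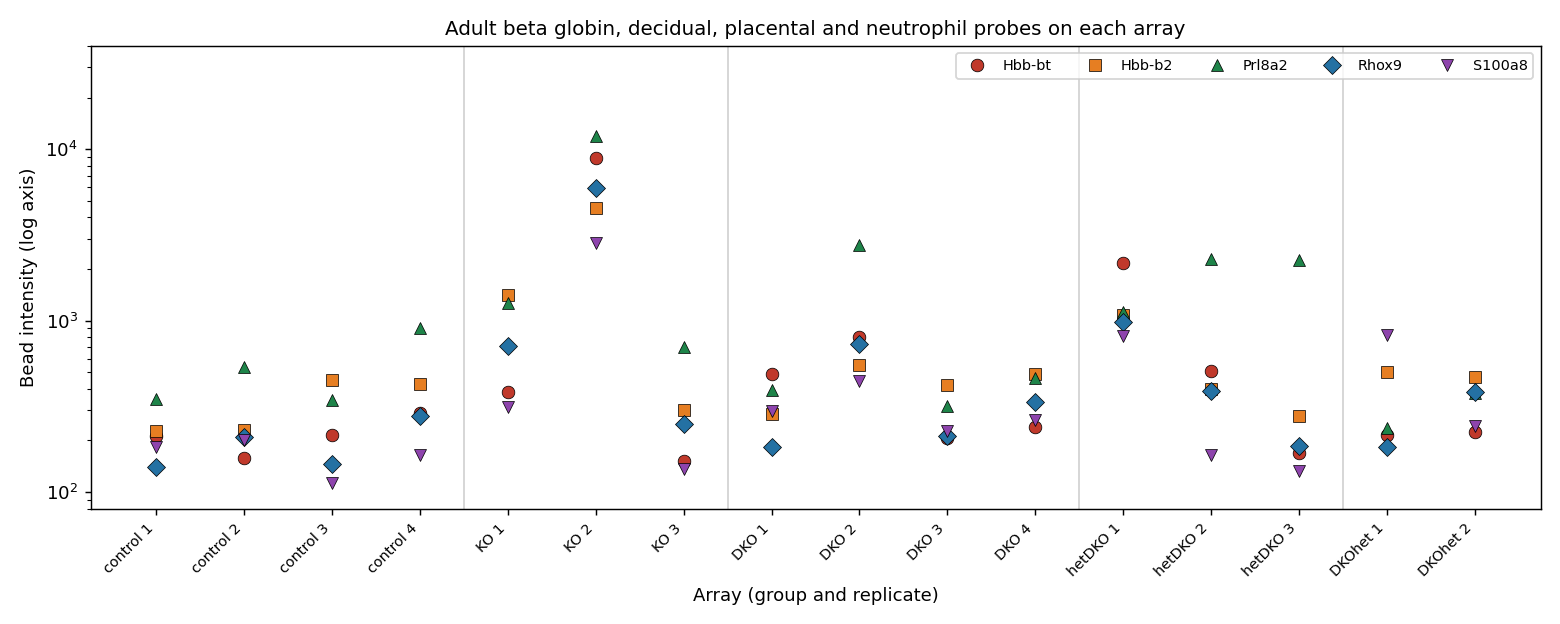
Bead intensity (log axis) of Hbb-bt, Hbb-b2, Prl8a2, Rhox9 and S100a8 on each array, in order of genotype and replicate. All 5 are highest on KO replicate 2 (2829.7 to 11886.7), and hetDKO replicate 1 has the second highest Hbb-bt and Rhox9.

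Lists of placental, decidual and adult white cell genes were drawn up after these values were seen and serve as description. The lists held 26, 18 and 16 genes, of which 9, 12 and 3 had a probe that passed the filter. Of these, 4 of 9 placental, 6 of 12 decidual and 2 of 3 white cell genes were highest on KO replicate 2, beside 6.39% of all probes. Among them are Rhox9, Cyp11a1, Sphk1, Prelp and Aoc1, already picked above for following the adult beta mean. The shares are therefore not a test. None of the listed genes was at 0, since every value includes the background of the array. The summed signal above background of the placental list was 19207 on KO replicate 2 and 1821 and 3203 on the other KO arrays. It was 1255 to 2067 in control, 2212 to 5313 in DKO, 1928 to 4604 in hetDKO and 2573 to 2893 in DKOhet. The decidual list summed to 50890 on KO replicate 2, 32324 and 33498 on the other KO arrays, 29795 to 34566 in control, 35136 to 47414 in DKO, 30238 to 34472 in hetDKO and 34317 to 38622 in DKOhet. A large part of each decidual sum was Gja1, which read 21460.1 on KO replicate 2 and 18241.6 to 29003.1 on the other arrays. Lgals1 read 7278.5 there and 4101.6 to 9645.5 on the others. KO replicate 2 ranked 12 of 16 for Gja1 and 6 of 16 for Lgals1, so the sum does not measure decidual signal alone. The white cell list summed to 3602 on that array, 1022 and 1073 on the other KO arrays, 229 to 419 in control, 730 to 1229 in DKO, 170 to 943 in hetDKO and 792 to 953 in DKOhet. On a separate list of 10 genes of macrophages and other white cells 1 was tested, Lyz2. Its signal above background was 868 on KO replicate 2, 36 to 84 in control and 52 to 192 in hetDKO. Of 6 blood progenitor genes 2 were tested. In the main fit 0 genes of either list passed in any genotype comparison, beside 0% to 26.4% of all probes. The embryonic globins of KO replicate 2 lay within the range of the other arrays. The part of these other cells in the adult beta globin values was not tested.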

How the data were processed

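RNA from mouse embryonic hearts was labelled as biotin cRNA and hybridised to 16 Illumina bead arrays, per the labels' protocols. The deposited table gives for each of 25696 probes the average bead intensity on a linear scale, without background removal, and a detection p-value per array, per the file headers. The authors' deposited value table (14788 probes) holds intensity after a normalisation whose method is not given in the sources, and served only as an alternative. The submitters' processing notes name BeadStudio.

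The nec function of limma (normexp, with the background inferred from detection p-values) corrected each array, with 16 as the offset, and log2 values were then quantile normalised. Such values are called log2 signal, and the offset makes the folds of dim probes smaller. The filter kept the 14058 probes detected (p under 0.05) on 2 or more arrays and left out 11638. Limma 3.58.1 in R 4.3.3 was fitted with 1 mean per group to all 16 arrays (11 residual and 3.52 prior degrees of freedom), so the groups share the estimate of the spread, and each comparison was adjusted over the 14058 probes (Benjamini-Hochberg). The fit was tested on simulated data. Correlations used scipy 1.17.1. The number of arrays limits the precision.

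Probe names come from a platform annotation with 1 symbol per named probe. Of the kept probes 13238 had a symbol. Promoters are RefSeq's (GRCm38.p6). The members and gene lists were chosen with earlier results of these data known, and the placental, decidual and white cell lists after their values were seen. All member probes are named. From each list the text gives counts, the members that passed, and some of the smallest p in the Rbpj-deleted comparison. The genes most like the globins are the 6 with the highest Pearson correlation among those detected on at least 8 arrays, which the values then picked. Alternatives were other normalisations, offsets and filters, the beadchip as a block and within each beadchip, array weights, a replicate block and each array left out.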

Additional observations from a re-analysis of the deposited data

Results flagged for a closer look

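In the control group, the lowest Hba-x log2 signal, 15.4 on replicate 2, was far from the next, 15.87, with the gap 0.836 of the whole range. Chance alone gives such a gap in about 1 in 20 groups, and 18 groups of members were examined. This array was on beadchip 2 and also had the lowest Slc4a1 intensity of the 4 control arrays, 6035.0.

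On KO replicate 1, 4 red cell probes that the detection filter had left out of the tests were above every control array. One of the probes of Cpox, a heme synthesis enzyme, read 187.2 there against at most 148.8 in control. Its other probe passed the filter, was detected on all 16 arrays and read 382 to 783.2 in control and 421.5 to 1416 in KO. Add2, a red cell membrane protein, read 233.3 against at most 167. Hbq1b, a theta globin, read 220.7 against at most 187.4. One Abcb10 probe, for a mitochondrial transporter of red cells, read 239 against at most 180.8, while the Abcb10 probe that passed the filter read 766.3 to 1231.6 in control and 493.2 to 1710.6 in KO. These are single values, and the difference was not tested. The share of all left-out probes above every control array on KO replicate 1 is not given here. That array was also the highest for Slc4a1, 29731.9, and Alas2, 17193.3.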

How the results depend on the processing

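Of 1731 values recomputed under the alternatives, 1574 kept their direction and their side of the threshold, 95 lost the threshold, 30 gained it and 30 changed direction, and 2 values without a test moved by more than the spread. The count of member probes that passed in limma stayed at 0 in the alternatives run, with these exceptions: within beadchip 2 it was 2 for KO against control, 1 for DKO against KO and 1 for Rbpj-deleted against Rbpj-present (beside 0.676%, 0.42% and 1.1% of all probes), with array weights it was 1 for KO against control, and with 1 array left out it was 0 to 1 for KO against control and 0 to 1 for Rbpj-deleted against Rbpj-present. Within beadchip 2 the balance of embryonic and adult beta globin differed by -5.36 in KO against control and by 3.78 in DKO against KO, through the single KO array there.

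Some differences changed sign. With the beadchip as a block, the log2 difference was -0.0154 for Hba-x in KO, -0.12 for Slc4a1 in hetDKO and -0.52 for Hbb-bt in DKOhet. Within beadchip 1 it was -0.12 for Hba-x in KO, -0.0275 for Slc4a1 in KO, -0.22 for Slc4a1 in hetDKO, 0.48 for Hbb-bt in DKO against KO and -0.33 for Hbb-bt with Rbpj deleted. Within beadchip 2 it was -0.0629 for Slc4a1 in hetDKO, 0.36 for Hbb-b2 in DKO against hetDKO, and 0.16 for Slc4a1 and 0.13 for Tal1 with Rbpj deleted. With array weights Slc4a1 in hetDKO was -0.20. With 1 array left out, the ranges that crossed 0 were -0.0631 to 0.15 for Hba-x in KO, -0.18 to 0.11 for Hba-x in hetDKO, -0.24 to 0.56 for Slc4a1 in hetDKO and -0.16 to 0.30 for Hbb-bt in DKOhet. They were -0.86 to 0.30 for Hbb-b2 and -1.96 to 0.39 for Hbb-bt in DKO against hetDKO, -2.82 to 0.68 for Hbb-bt in DKO against KO and -0.40 to 0.85 for Hbb-bt with Rbpj deleted. The balance of embryonic and adult beta globin, 1.32 in DKO against KO and 0.33 in DKO against hetDKO, ran from -0.17 to 2.63 and from -0.58 to 1.19. The cause was not tested.

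Arrays with the same replicate number on the same beadchip deviated together only in part (r from -0.0006 to 0.346 over 23 pairs), so the numbers were not taken as pairs. With the replicate block, 0 of 8 members passed in each comparison, and the difference was -0.00677 for Hba-x in KO, -0.12 for Slc4a1 in hetDKO, -0.77 for Hbb-bt in DKOhet and -0.0276 for Hbb-bt with Rbpj deleted. The dim adult beta probes, near background on most arrays, and the bright embryonic probes, near the top of the scale, limit what could be measured.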

Other observations

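Platelet and heart transcripts gave further values on the same arrays. Pf4, the platelet factor, was highest on DKOhet replicate 1 (9571.8), against 330.6 on DKOhet replicate 2 and 292.5 to 999.6 in control. KO replicates 1 to 3 read 2340.3, 1045.7 and 3524.3, each above every control array. So did DKO replicates 1 and 3 (1490.3 and 1075.6) and hetDKO replicate 3 (1144.9), while the other DKO and hetDKO arrays did not. On the normalised log2 scale KO replicate 2 lay at 9.852 and control replicate 3 at 9.848. The share of all probes that separate KO from control is not given here. All 5 platelet genes tested had a positive difference from control in KO (median 1.33) and in DKOhet (median 1.58), and 0 of 5 passed in either, against 7.58% and 8.61% of all probes. Unadjusted p-values of the limma fit were under 0.05 for Pf4 (0.0381) and Ppbp (0.00643) in KO and for Ppbp (0.0201) in DKOhet. The DKOhet difference rested on replicate 1, where the mean log2 signal of the 5 genes was 10.83, while on DKOhet replicate 2 it was 6.39, below the 6.50 to 7.69 of control. Ppbp, another platelet chemokine, was also highest on DKOhet replicate 1 (1714.4), and was detected on 6 of the 16 arrays. These were KO replicates 1 to 3, DKO replicate 3, DKOhet replicate 1 and, with Rbpj present, only control replicate 3. Ppbp thus passed the filter only through Rbpj-deleted arrays, and its call there is a description. It rose in the Rbpj-deleted arrays by 1.71 (limma adjusted p = 0.0395), and by 0.87 without that array (limma adjusted p = 0.0975). That call was also lost without control replicate 1, 2 or 4, DKO replicate 1 or 3, KO replicate 1 or 3, or any hetDKO array. It was the 1 of 5 platelet genes to pass in that comparison, beside 26.4% of all probes. Adult beta globin was not high on that array, with Hbb-b2 at 501.5 and Hbb-bt at 214.0.

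In the Rbpj-deleted arrays, where 26.4% of all probes passed, 1 of 6 endothelial genes passed, 1 of 7 of yolk sac endoderm and liver, and 2 of 9 of heart muscle. Pecam1, an endothelial adhesion protein, rose by 0.48 (limma adjusted p = 0.00788), while 4 of the 6 endothelial genes had a negative difference (median -0.0853). Rbp4, a retinol carrier of the yolk sac endoderm, rose by 1.10 (limma adjusted p = 0.0123), with 3 of its list of 7 negative (median 0.16). Neither Pecam1 nor Rbp4 passed within beadchip 2, nor Pecam1 within beadchip 1. Nppa, the atrial peptide, rose by 0.46 (limma adjusted p = 0.0278) and Tnnc1, a troponin of heart muscle, fell by 0.51 (limma adjusted p = 0.0351), and neither passed within either beadchip. The call of Nppa was lost without control replicate 2, hetDKO replicate 1 or 2, or DKOhet replicate 2. That of Tnnc1 was lost without control replicate 2 or 4, DKO replicate 1 or 3, hetDKO replicate 2 or 3, or DKOhet replicate 1.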
